A study of Mus musculus with 20 samples.

Results

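Lymphatic endothelial cells line the vessels that return fluid, lipid and immune cells from tissues to the blood. Prox1, a homeobox transcription factor, sets and keeps their identity, and Flt4 encodes VEGFR-3, the receptor through which VEGF-C and VEGF-D make lymphatic vessels grow. Lyve1 encodes a hyaluronan receptor of lymphatic capillaries, Pdpn a mucin-type membrane glycoprotein, podoplanin, and Mmrn1 the secreted glycoprotein multimerin 1. None of these genes belongs to lymphatic cells alone. Lyve1 is also expressed by tissue-resident macrophages and liver sinusoidal endothelium, Flt4 by fenestrated blood endothelium, Prox1 by hepatocytes, Pdpn by fibroblasts and mesothelium, and Mmrn1 by platelets and their precursors.

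These 5 genes were followed in the liver and in the white fat pad beside the epididymis (eWAT) of 2-month-old male mice. They were chosen by name, since Mmrn1 and Lyve1 had been seen to be far lower in eWAT of IR 4A mice in an earlier look at the same libraries, and the others are classical lymphatic markers. The members are 5 of the 20738 genes of the eWAT table and 5 of the 15608 of the liver table. The mice were either IR 4A, whose insulin receptor carries a changed binding motif for the spindle checkpoint protein MAD2, or WT. The groups were eWAT IR 4A, eWAT WT, liver IR 4A and liver WT, with 5 libraries each and 20 in all. The labels name no strain, zygosity or animal, so the spread between libraries behind each p may be technical. Messenger RNA was counted over whole tissue, in which fewer cells of a type and less RNA per cell cannot be told apart. All 5 genes passed the filter on low counts in eWAT, and 4 of them did in liver, where Pdpn did not.

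Total counts ran from 13651874 to 15530589 in eWAT IR 4A, from 15702786 to 21615358 in eWAT WT, from 18209000 to 24238359 in liver IR 4A and from 17989420 to 21067651 in liver WT. The eWAT libraries hold RNA of the neighbouring organs. The 10 epididymis markers summed to 21580 to 30110 CPM (counts scaled to library size within a tissue) in IR 4A and to 4709 to 22420 CPM in WT. Library WT 4 stood apart: 6 of these 10 genes, Lcn8 and Spag11b among them, were under 2 CPM there and at 392 CPM or more in each of the other 9 libraries, while Crisp1 was at 2930 CPM. Testis and sperm markers were high in 4 libraries, IR 4A 3, IR 4A 4, WT 1 and WT 2, whose mean log2 level stood at least 1.40 above that of the other 6. Without these libraries the log2 fold changes of IR 4A over WT in eWAT were -2.53 for Mmrn1, -2.28 for Lyve1 and -1.05 for Flt4. With all 10 libraries they were -2.90, -2.53 and -1.17. Further values without them are given below for Prox1, for the ratios to blood endothelium and for the pairs of genes.

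The sequences before the starts of Mmrn1, Flt4 and Pdpn are shown because Mmrn1 and Flt4 varied together between eWAT libraries while Pdpn went its own way. They are the 250 bases upstream of the RefSeq start on the strand of the gene, in the GRCm38.p6 build, and lie at chr6:60944067-60944316 (plus strand) for Mmrn1, chr11:49609429-49609678 (plus strand) for Flt4 and chr4:143299565-143299814 (minus strand) for Pdpn. Capitals mark matches to the motifs searched.
Mmrn1: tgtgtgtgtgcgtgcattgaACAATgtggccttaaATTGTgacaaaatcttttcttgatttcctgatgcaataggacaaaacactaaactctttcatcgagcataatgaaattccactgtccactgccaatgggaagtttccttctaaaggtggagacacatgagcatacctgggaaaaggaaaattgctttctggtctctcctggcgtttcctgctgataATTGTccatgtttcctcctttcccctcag
Flt4: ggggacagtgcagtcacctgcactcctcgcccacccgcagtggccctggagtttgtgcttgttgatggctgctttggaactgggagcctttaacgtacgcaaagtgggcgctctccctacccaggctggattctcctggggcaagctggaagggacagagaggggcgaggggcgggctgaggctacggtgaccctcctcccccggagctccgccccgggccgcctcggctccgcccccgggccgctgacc
Pdpn: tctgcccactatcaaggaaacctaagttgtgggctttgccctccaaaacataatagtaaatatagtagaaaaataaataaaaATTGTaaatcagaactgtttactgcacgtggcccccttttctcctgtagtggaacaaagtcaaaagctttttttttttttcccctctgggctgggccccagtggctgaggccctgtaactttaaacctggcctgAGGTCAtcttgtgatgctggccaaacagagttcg
Short motifs were read on both strands. The ETS motif was AGGAAG. The SOX motif was ACAAT. The GATA motif was AGATAA. The nuclear receptor motif was AGGTCA. A joint motif of FOX and ETS factors was searched as well, and no motif overlapped another in these windows. The Mmrn1 window held 3 SOX matches, the Pdpn window 1 SOX match and 1 nuclear receptor match, and the Flt4 window had no match to these letters. Over all 32851 windows of this length, 27.7% held the SOX letters, 14.0% the nuclear receptor letters, 29.5% ETS, 9.99% GATA and 2.25% the joint FOX and ETS letters. Windows before 2 starts of Prox1 held no match either. No window of Lyve1 was available. Whether these sequences have a part in how the genes varied was not tested.

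In eWAT, 4 of the 5 genes were lower in IR 4A than in WT, and the size of the difference ran from large to moderate in the order Mmrn1, Lyve1, Prox1, Flt4. Pdpn did not follow. Because the differences of Mmrn1 and Lyve1 led to the choice of this set, all 5 genes are described here without a test. The groups did not overlap in 3 of the 5 (Mmrn1, Lyve1 and Flt4); over all 16476 genes tested in eWAT, 3.22% were lower without overlap and 59.9% had a negative log2 fold change.

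Mmrn1 stood at 3.51, 3.89, 0.621, 1.98 and 2.68 CPM in IR 4A libraries 1 to 5, against 17.9, 18.3, 18.8, 24.8 and 14.97 CPM in WT libraries 1 to 5. Each IR 4A library lay under each WT library, and the highest IR 4A value was far from the lowest WT value. The mean was 2.54 ± 1.302 CPM in IR 4A and 19.0 ± 3.599 CPM in WT (SD, n = 5 each), 13.4% of the WT mean. The log2 fold change was -2.90 (SE 0.42). IR 4A 3, with 9 counts, was the lowest library.

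Lyve1, the hyaluronan receptor, had 9.81, 6.76, 1.45, 2.46 and 5.42 CPM in IR 4A libraries 1 to 5, against 17.2, 25.0, 28.6, 60.0 and 19.1 CPM in WT libraries 1 to 5. The groups again did not overlap, and WT 4 stood far above the other WT libraries. The log2 fold change was -2.53 (SE 0.55), and the IR 4A mean was 17.3% of the WT mean. Without WT 4 it was -2.11, and without IR 4A 3 it was -2.29.

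Prox1, the identity factor, was scarce in eWAT, with 1.22, 1.297, 2.35, 3.00 and 0.849 CPM in IR 4A libraries 1 to 5 and 5.33, 9.41, 3.59, 5.38 and 2.79 CPM in WT libraries 1 to 5. IR 4A 4 lay above WT 5, so the groups overlapped. The log2 fold change was -1.60 (SE 0.43), and the IR 4A mean was 32.8% of the WT mean. The highest IR 4A values (libraries 3 and 4) and the highest WT value (library 2) were in libraries high in testis markers, whose part in the level was not tested. Without the 4 testis-high libraries the log2 fold change was -1.79.

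Flt4, the VEGF-C receptor gene, had 8.52, 10.03, 4.41, 5.58 and 8.30 CPM in IR 4A libraries 1 to 5, against 14.8, 11.9, 15.6, 27.0 and 13.5 CPM in WT libraries 1 to 5. The groups did not overlap, though IR 4A 2 came close to WT 2. The log2 fold change was -1.17 (SE 0.29), and the IR 4A mean was 44.4% of the WT mean. Without WT 4 it was -0.92.

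Pdpn, the podoplanin gene, had 46.8, 54.3, 42.5, 42.3 and 44.1 CPM in IR 4A libraries 1 to 5, against 41.1, 42.5, 48.7, 38.2 and 48.4 CPM in WT libraries 1 to 5. The groups lay on top of each other, with a log2 fold change of 0.07 (SE 0.10). Its spread was also the smallest of the 5 genes, with a coefficient of variation of 10.8% in IR 4A and 10.6% in WT, where the other 4 ran from 31.3% to 65.0% in IR 4A and from 19.0% to 58.1% in WT.

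**Figure D1:**
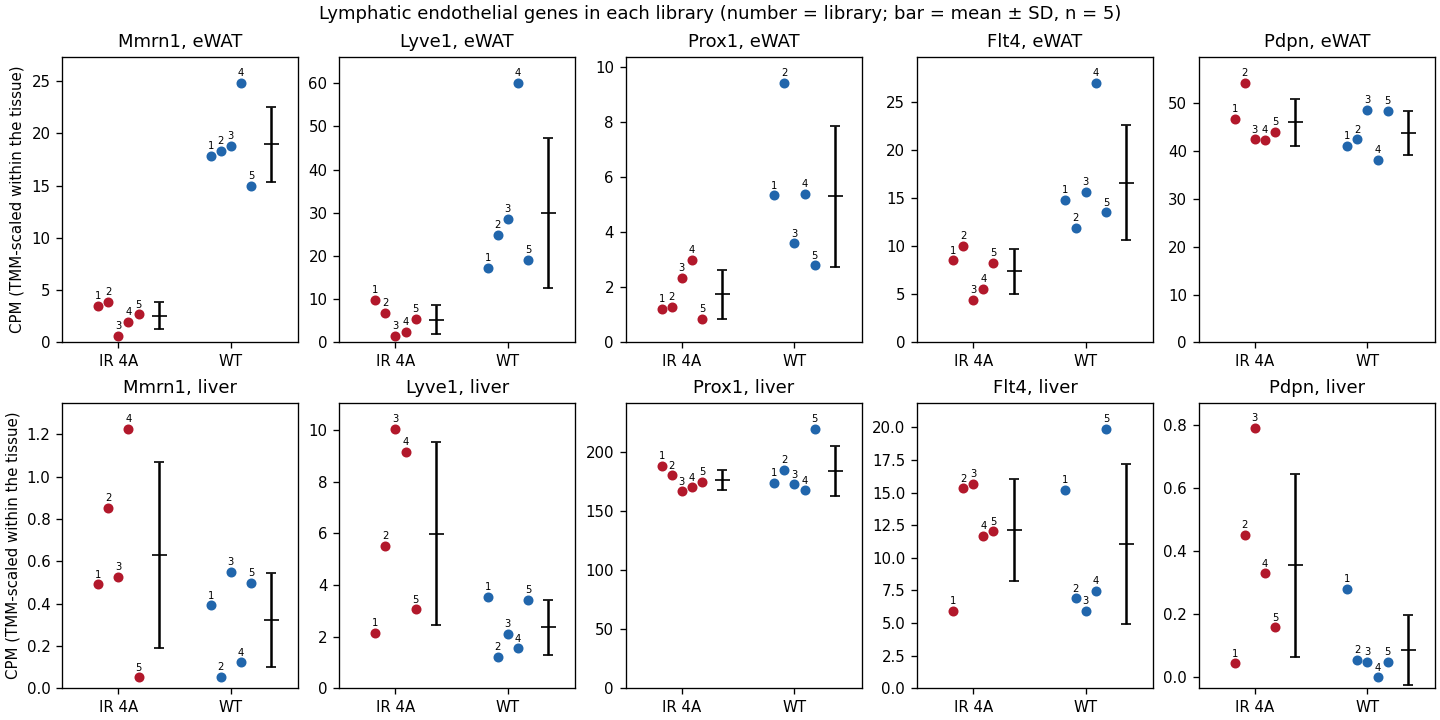
CPM of each gene in each library, eWAT in the upper row and liver in the lower row, with IR 4A left of WT; digits are library numbers and bars are the mean ± SD of 5 libraries. In eWAT the IR 4A points of Mmrn1, Lyve1 and Flt4 all lie under the WT points, whereas those of Pdpn do not, and in liver the groups overlap for every gene.

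In the authors' deposited table the log2 fold changes in eWAT were -2.90 for Mmrn1, -2.55 for Lyve1, -1.27 for Prox1, -1.18 for Flt4 and 0.00 for Pdpn. Only Prox1 and Pdpn differed from the values above by more than 0.05. Per length, on the scale of CPM per kilobase of exon, the levels in IR 4A eWAT were 25.3 for Pdpn, 1.78 for Lyve1, 0.895 for Flt4, 0.432 for Mmrn1 and 0.208 for Prox1. In WT eWAT they were 24.1 for Pdpn, 10.3 for Lyve1, 3.23 for Mmrn1, 2.01 for Flt4 and 0.632 for Prox1. Mmrn1 thus stood above Flt4 in WT and under it in IR 4A.

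Markers of other cell types were lower in IR 4A eWAT as well, by varying amounts. All 12 blood endothelium markers were negative, with a median log2 fold change of -0.90, and their summed level ran from 261 to 953 CPM in IR 4A and from 668 to 1912 CPM in WT. Their 3 highest genes are Cdh5, Ptprb and Pecam1. All 10 markers of the resident macrophages that carry LYVE1, led by Gas6, Mrc1 and F13a1, were negative (median -1.91), at 108 to 273 CPM in IR 4A and 345 to 844 CPM in WT. All 10 markers of fibroblasts and adipose progenitors, led by Col3a1, Dcn and Col1a1, were negative (median -1.20), at 825 to 2245 CPM in IR 4A and 2833 to 7073 CPM in WT. Of 10 mesothelium markers, led by Krt19, Upk1b and Upk3b, 8 were negative (median -1.29), at 172 to 246 CPM in IR 4A and 270 to 360 CPM in WT. The 8 adipocyte markers were all negative (median -0.91), at 1905 to 10710 CPM in IR 4A and 6225 to 20490 CPM in WT. The median over all genes was -0.08. The macrophage, fibroblast and mesothelium sums did not overlap between the genotypes, and the endothelial and adipocyte sums did.

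Further lists moved in both directions. All 8 general macrophage markers were negative (median -1.05), at 142 to 304 CPM in IR 4A and 379 to 1102 CPM in WT. Of 6 lymph node B and T cell markers that passed the filter 5 were negative (median -1.65), at 5.10 to 9.34 CPM over the list in IR 4A and 8.29 to 32.3 CPM in WT. Platelet and megakaryocyte markers, a source of Mmrn1 outside lymphatic vessels, summed to 19.3 to 27.4 CPM in IR 4A and 16.3 to 26.4 CPM in WT, and 2 of the 3 tested were positive. The 7 tested sinusoidal markers were negative (median -0.50), as were the 4 tested hepatocyte markers (median -0.72) and the 10 testis markers (median -0.71), while all 10 epididymis markers were positive (median 0.79). No gene of these lists passed an adjusted p of 0.05 (edgeR, 0 of 98 tested); at an unadjusted p of 0.05 there were 42 lower and 2 higher, where 9.24% of all eWAT genes were lower and 6.63% higher, and DESeq2 called 33 lower and 1 higher, where it called 4.13% of all genes lower and 3.17% higher. The part of these other cell types in the levels of Mmrn1, Lyve1, Prox1 and Flt4 was not tested.

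Set against blood endothelium over all 10 libraries, the 4 lower genes parted into pairs. Per 100 counts of the 12 endothelium markers, Mmrn1 had 0.452 ± 0.173 counts in IR 4A and 1.94 ± 0.526 in WT (SD, n = 5 each), and the groups did not overlap. Lyve1 had 0.847 ± 0.188 in IR 4A and 2.80 ± 0.766 in WT, again without overlap. Flt4 had 1.44 ± 0.391 in IR 4A and 1.61 ± 0.141 in WT, and Prox1 had 0.474 ± 0.448 in IR 4A and 0.595 ± 0.469 in WT, both with overlap. Outside the testis-high libraries Prox1 had 0.128, 0.19 and 0.128 in IR 4A libraries 1, 2 and 5. In WT libraries 3, 4 and 5 it had 0.389, 0.282 and 0.324, so these groups did not overlap. Flt4 still overlapped there, with 1.47 in IR 4A 2 and 1.41 in WT 4. Pdpn had 10.05 ± 5.01 in IR 4A and 4.73 ± 1.68 in WT. With library sizes taken from these markers the log2 fold changes were -2.10 for Mmrn1, -1.72 for Lyve1, -0.35 for Prox1, -0.16 for Flt4 and 1.09 for Pdpn. That scaling, chosen after seeing the data, moved the median of all genes to 0.96, where it was -0.08 with TMM library sizes. Relative to that median the changes were -3.06 for Mmrn1, -2.69 for Lyve1, -1.31 for Prox1, -1.12 for Flt4 and 0.12 for Pdpn, and with TMM they were -2.82, -2.45, -1.52, -1.09 and 0.15 in the same order of genes.

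**Figure D2:**
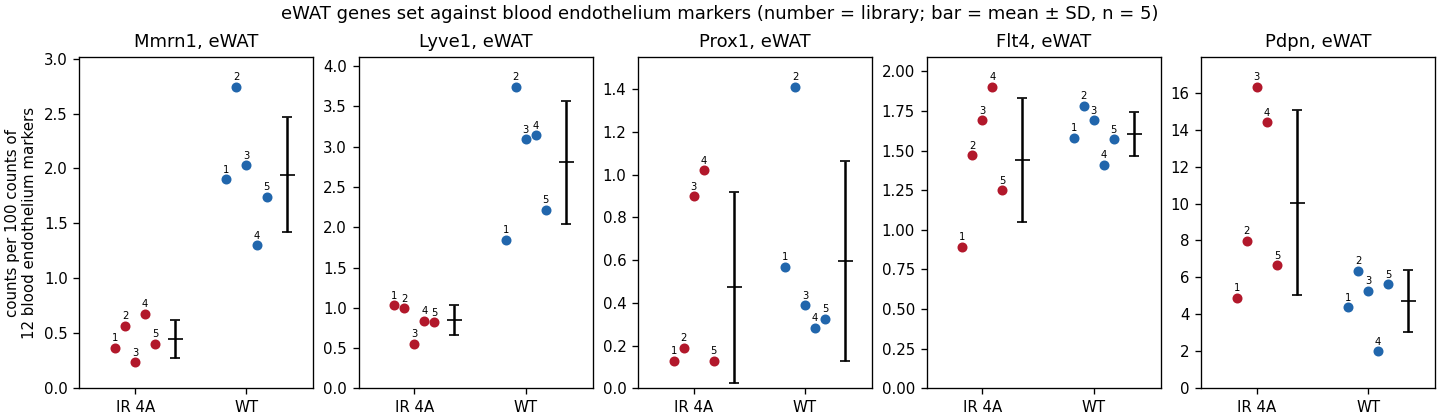
Counts of each gene per 100 counts of 12 blood endothelium markers in each eWAT library, IR 4A left of WT; digits are library numbers and bars are the mean ± SD of 5 libraries. Mmrn1 and Lyve1 lie lower in every IR 4A library, Flt4 and Prox1 overlap, and the IR 4A libraries 3 and 4 are the highest for Pdpn.

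Whether the genes varied together was asked within genotypes, which the choice of the genes did not use. Each library's log2 CPM was taken as its deviation from the mean of its genotype, and 10 pairs of genes were correlated over the 10 eWAT libraries (exact permutation within genotypes, two-sided, adjusted over the 10 pairs). Mmrn1, Lyve1 and Flt4 varied together between libraries. The share of all gene pairs that would pass this test was not counted. Mmrn1 and Lyve1 had a Pearson r of 0.873 (exact permutation p = 0.00125, adjusted p = 0.008) and a Spearman rho of 0.927 (exact permutation p = 0.00167, adjusted 0.0167). Mmrn1 and Flt4 had r = 0.812 (exact permutation p = 0.0016, adjusted p = 0.008) and rho = 0.879 (adjusted 0.0184). Lyve1 and Flt4 had r = 0.894 (exact permutation p = 0.00556, adjusted p = 0.0185) and rho = 0.879 (adjusted 0.0241). Without the 2 libraries farthest from the median of the first gene, r was 0.923, 0.771 and 0.900 for these 3 pairs. The Lyve1 and Flt4 pair missed the adjusted threshold without IR 4A 3 (r = 0.840), IR 4A 4 (r = 0.884) or WT 4 (r = 0.866).

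Prox1 did not join them. Its r was -0.362 with Mmrn1, -0.405 with Lyve1 and -0.463 with Flt4, and Pdpn had r from -0.554 (with Prox1) to 0.317 (with Mmrn1). None of these 7 pairs passed (exact permutation adjusted p from 0.315 to 0.737). Without the 4 testis-high libraries the sign for Prox1 turned: over the other 6 libraries its r was 0.992 with Mmrn1, 0.918 with Lyve1 and 0.895 with Flt4. The 3 pairs above kept r of 0.868 (Mmrn1 and Lyve1), 0.868 (Mmrn1 and Flt4) and 0.840 (Lyve1 and Flt4) there. None of the 10 pairs passed over these 6 libraries, whose 36 orders allow no p under 0.0278, so that at least 6 pairs would have to reach it for any to pass. Relative to the blood endothelium level of each library, a measure added after seeing the data, none of the 3 pairs passed. Their r was 0.44 for Mmrn1 and Lyve1, 0.414 for Mmrn1 and Flt4 and -0.207 for Lyve1 and Flt4 (exact permutation adjusted p = 0.503, 0.503 and 0.602). Flt4 then passed with Prox1 (r = 0.822) and with Pdpn (r = 0.813, exact permutation adjusted p = 0.0132 for both). Before the subtraction their r was -0.463 and 0.119. The endothelium level was subtracted from both genes of a pair, which by itself can raise r. These 2 calls therefore do not decide whether the genes varied together.

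The same 3 genes also went with other tissue components. Of 30 relations between the 5 genes and 6 marker lists, 17 passed (exact permutation, adjusted over the 30), 15 of them being Mmrn1, Lyve1 and Flt4 with each of blood endothelium, resident macrophages, fibroblasts, mesothelium and adipocytes. Without IR 4A 3, the lowest library for these 3 genes, 8 of the 30 passed; without any other single library 13 to 18 did. Mmrn1 was closest to mesothelium (r = 0.981, rho = 0.939, exact permutation p = 0.000278, adjusted p = 0.00729). Lyve1 was closest to fibroblasts and adipose progenitors (r = 0.974, rho = 0.952, exact permutation p = 0.000486, adjusted p = 0.00729), followed by resident macrophages (r = 0.933, adjusted p = 0.00885). Flt4 was closest to blood endothelium (r = 0.935, rho = 0.976, exact permutation p = 0.00201, adjusted p = 0.0101). Without the 2 farthest libraries these 4 values were 0.936, 0.958, 0.918 and 0.889. The other 2 relations were with testis and sperm markers, r = 0.796 for Prox1 (rho = 0.709, exact permutation p = 0.0149, adjusted p = 0.0263) and r = -0.802 for Flt4 (rho = -0.770, exact permutation p = 0.0128, adjusted p = 0.0240). Without the 2 farthest libraries these values were 0.586 and -0.702, and each of the 2 relations missed the threshold without any 1 of 6 libraries, with r between 0.731 and 0.787 for Prox1 and between -0.80 and -0.724 for Flt4. Pdpn had no relation past the threshold. How many of all genes would pass with these lists was not counted, so whether these relations are particular to the members was not tested.

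**Figure D3:**
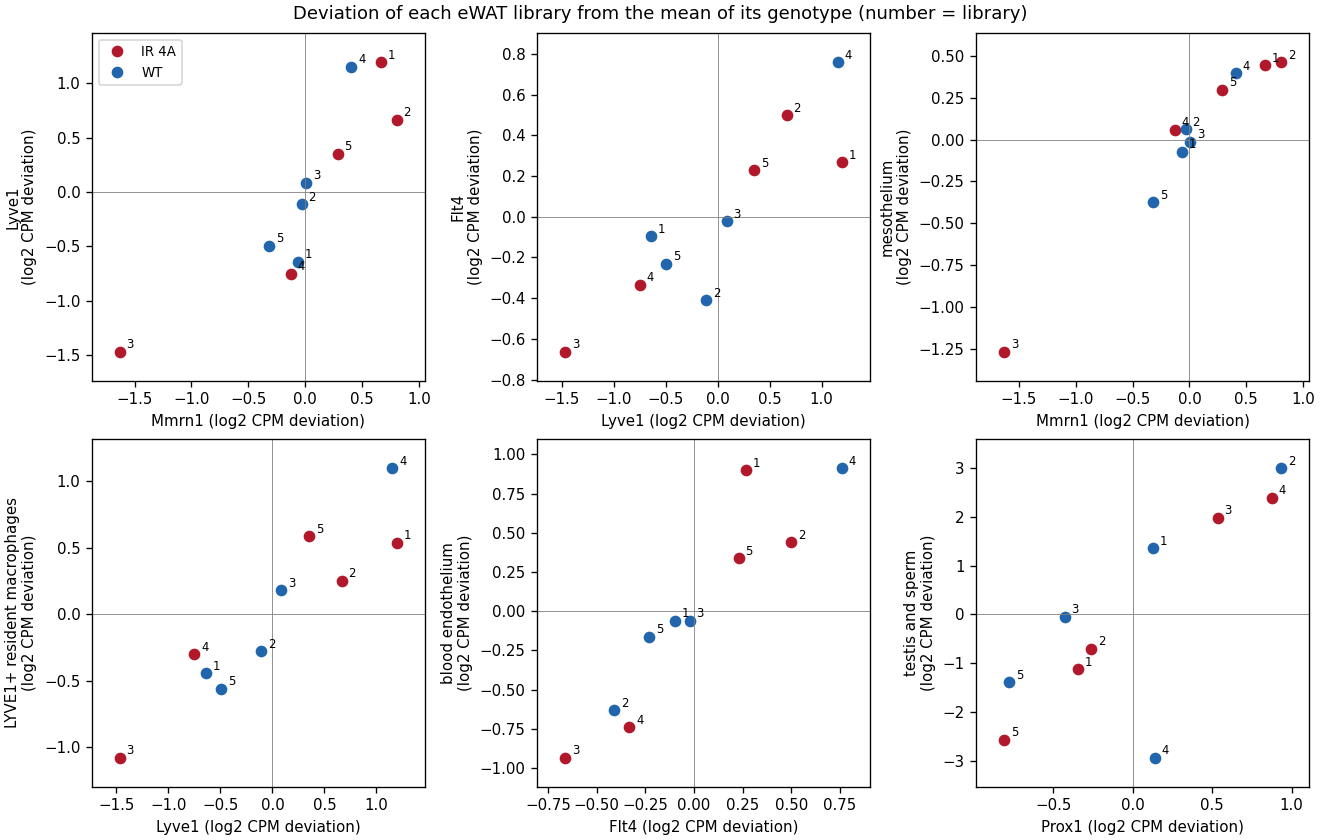
Deviation of each eWAT library from the mean of its genotype on the log2 CPM scale, for 6 pairs of a gene with another gene or with the mean level of a marker list; digits are library numbers. IR 4A 3 is lowest for Mmrn1, Lyve1, Flt4 and the 3 lists set against them, WT 4 is among the highest, and in the Prox1 panel the testis-high libraries IR 4A 3, IR 4A 4 and WT 2 lie at the upper right.

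The genes most like each member over these deviations (Pearson r over 10 libraries, among 15911 genes, given as a description) were of different kinds. For Mmrn1 they were Gpm6a (0.988), Lrrn4 (0.986), Zfp12 (0.981), Upk3b (0.979) and Slpi (0.961), and 3 of them are on the mesothelium list. For Lyve1 they were Sult1a1 (0.991), Ric1 (0.989), Csgalnact2 (0.987), Mgat4a (0.986) and Elf4 (0.983), and for Flt4 Cyp2s1 (0.992), Dpep1 (0.989), Bnip3 (0.986), Clic4 (0.984) and Helz2 (0.983). Prox1 was most like Arl11 (0.983), Tiam1 (0.978), Atoh8 (0.978), Xkr8 (0.977) and Cdh2 (0.976). Pdpn was most like Pdgfra (0.946), the platelet-derived growth factor receptor gene of fibroblasts and adipose progenitors, then Uso1 (0.926), Glb1l2 (0.925) and Mettl8 (0.922). With the level of the whole fibroblast list, however, Pdpn had r = 0.128 (exact permutation adjusted p = 0.755). The median r with all genes was 0.07 for Mmrn1, 0.06 for Lyve1, -0.20 for Prox1, 0.06 for Flt4 and 0.07 for Pdpn. No gene was among the top 5 of 2 members.

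In liver, which the choice of the genes did not use, none of the 4 tested genes passed (edgeR's quasi-likelihood test with Benjamini-Hochberg adjustment). Over all 12421 genes tested there, 0% were called higher and 0.00805% lower at an adjusted p of 0.05 (Erdr1 is the 1 gene called); 8.6% were higher at an unadjusted p of 0.05, and DESeq2 called 200 higher (1.61%) and 226 lower. Without IR 4A 1, edgeR called 80 higher and 63 lower. Lyve1, a sinusoidal gene in liver, had 2.14, 5.52, 10.04, 9.14 and 3.06 CPM in IR 4A libraries 1 to 5 and 3.53, 1.22, 2.10, 1.54 and 3.44 CPM in WT libraries 1 to 5. IR 4A 2, 3 and 4 lay above every WT library and IR 4A 1 and 5 did not. Its log2 fold change was 1.34 (SE 0.44, edgeR p = 0.00983, adjusted p = 0.171), and in the authors' deposited table it was 1.31 with an adjusted p of 0.0697.

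Flt4 in liver had 5.93, 15.3, 15.7, 11.7 and 12.02 CPM in IR 4A libraries 1 to 5 and 15.2, 6.90, 5.95, 7.47 and 19.9 CPM in WT libraries 1 to 5. The groups overlapped throughout (log2 fold change 0.13, SE 0.35, edgeR adjusted p = 0.879). Prox1, which hepatocytes express, had 189, 181, 167, 170 and 175 CPM in IR 4A and 174, 185, 173, 168 and 220 CPM in WT (libraries 1 to 5 of each), with -0.06 as the log2 fold change (SE 0.09, edgeR adjusted p = 0.737). Mmrn1 was near the detection limit, with 1 to 26 counts a library in IR 4A and 1 to 11 in WT (log2 fold change 0.92, SE 0.63, edgeR adjusted p = 0.461). Pdpn, left out by the filter, had 1, 9, 21, 7 and 3 counts in IR 4A and 5, 1, 1, 0 and 1 counts in WT (libraries 1 to 5 of each).

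No tested gene of the marker lists passed the adjusted threshold in liver (edgeR). The 12 blood endothelium markers had a median log2 fold change of 0.23 (11 positive), the 8 tested sinusoidal markers 0.10 (5 positive) and the 5 tested markers of LYVE1-carrying macrophages -0.30 (2 positive), with 0 of these genes at an unadjusted p of 0.05 and 0 called by DESeq2. Of the lists whose cells also express Pdpn, all 9 tested fibroblast markers were positive (median 0.38), at 217 to 298 CPM in IR 4A and 183.5 to 209 CPM in WT, without overlap of the sums; 2 of them were at an unadjusted p of 0.05 and DESeq2 called 1. Their highest genes Dpp4, which hepatocytes also express, and Dcn had log2 fold changes of 0.48 (SE 0.13) and 0.40 (SE 0.12). Of 4 tested mesothelium markers 3 were positive (median 0.65, 1 at an unadjusted p of 0.05, 0 by DESeq2), and the list summed to 4.95 to 8.77 CPM in IR 4A and 1.66 to 6.20 CPM in WT. The part of these cells in the liver levels was not tested. Per 100 counts of the blood endothelium markers Lyve1 had 4.43 ± 2.16 counts in IR 4A liver and 2.04 ± 0.479 in WT liver (SD, n = 5 each), with overlap. Of 6 pairs of the 4 tested genes none passed (edgeR filter; exact permutation within genotypes); Lyve1 and Flt4 came nearest (r = 0.749, rho = 0.697, exact permutation p = 0.0133, adjusted p = 0.0798). At the unadjusted threshold 1 of the 6 passed.

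Between tissues, the genes had opposite patterns. Levels on a common scale of the 20 libraries (CPM over genes in both tables, so not equal to the values within a tissue) are given for eWAT IR 4A, eWAT WT, liver IR 4A and liver WT in turn. Prox1 averaged 1.17 ± 0.623, 3.49 ± 1.69, 297 ± 12.4 and 303 ± 36.4 CPM (SD, n = 5 each). Its eWAT over liver log2 fold change was -7.98 (SE 0.35, edgeR adjusted p = 2.3e-13) in IR 4A and -6.45 (SE 0.32, edgeR adjusted p = 1.41e-12) in WT. Over the 14696 genes tested, 34.8% were called lower in eWAT in IR 4A and 33.9% in WT, and 40.5% and 43.2% were called higher.

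Pdpn averaged 30.5 ± 2.73, 28.8 ± 3.30, 0.600 ± 0.491 and 0.144 ± 0.183 CPM. Its eWAT over liver log2 fold change was 5.61 (SE 0.39, edgeR adjusted p = 1.55e-10) in IR 4A and 7.59 (SE 0.48, edgeR adjusted p = 3.74e-11) in WT. Flt4 averaged 4.87 ± 1.43, 10.9 ± 3.71, 20.5 ± 6.72 and 18.3 ± 10.3 CPM. Its log2 fold change was -2.07 (SE 0.35, edgeR adjusted p = 3.09e-05) in IR 4A, and the WT value of -0.75 (SE 0.34) missed the threshold (edgeR adjusted p = 0.0514). The WT value passed with DESeq2 (-0.78, adjusted p = 0.0338) and without any 1 of 6 libraries, eWAT WT 4 among them (-1.14, edgeR adjusted p = 0.00577).

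Mmrn1 and Lyve1, chosen for their eWAT values, are given on this scale as a description. Mmrn1 averaged 1.67 ± 0.834, 12.4 ± 2.17, 1.06 ± 0.742 and 0.536 ± 0.371 CPM. Only eWAT WT stood clear of its neighbour in this order, and eWAT IR 4A overlapped with liver. Lyve1 averaged 3.40 ± 2.16, 19.6 ± 10.96, 10.1 ± 6.02 and 3.91 ± 1.79 CPM. Ordered by level, eWAT WT came first, then liver IR 4A, liver WT and eWAT IR 4A, and each group overlapped with the next. Its difference between eWAT and liver was -1.57 (SE 0.51) in IR 4A and 2.32 (SE 0.52) in WT on the log2 scale.

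Other genes of lymphatic vessels were mostly lower in IR 4A eWAT, as markers of other cell types were, without passing the test. Their median change was smaller than that of blood endothelium (-0.90), adipocytes (-0.91), fibroblasts (-1.20), mesothelium (-1.29) and LYVE1-carrying macrophages (-1.91). It was near that of sinusoidal markers (-0.50), while platelet and epididymis markers had positive medians (0.12 and 0.79). Of a list of 16 further lymphatic genes 15 were tested and 14 were negative, with a median log2 fold change of -0.51. None passed an adjusted p of 0.05, where 0.0121% of all genes were called lower (Tnmd and Itgbl1); 8 were lower at an unadjusted p of 0.05 (9.24% of all genes), and DESeq2 called 5 lower (4.13% of all genes). Ackr2, a scavenging chemokine receptor of lymphatic endothelium, averaged 0.739 ± 0.357 CPM in IR 4A and 3.16 ± 1.99 CPM in WT (log2 fold change -2.09, SE 0.44, edgeR adjusted p = 0.164). Ccl21a, a chemokine that draws dendritic cells into lymphatics, averaged 10.1 ± 5.19 CPM in IR 4A and 32.9 ± 9.14 CPM in WT (-1.71, SE 0.38, edgeR adjusted p = 0.173). Counts of Ccl21a may be shared with its near-identical gene copies. Maf, a transcription factor, had -1.20 (SE 0.42). These 3 did not overlap between the genotypes.

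Reln, which encodes the secreted protein reelin of collecting vessels, and Itga9, an integrin of lymphatic valves, both had -0.51 (SE 0.16), and Nrp2, a VEGF-C co-receptor, had -0.98 (SE 0.37). Among the rest of the list Foxc2, a valve transcription factor, had -1.22 (SE 0.52), Nr2f2, which encodes COUP-TFII, -0.13 (SE 0.16) and Sox18, an inducer of Prox1, -0.26 (SE 0.46). Gata2 was the 1 positive gene (0.12, SE 0.34).

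The 16 genes of the VEGF-C and angiopoietin pathways and of valves were all negative in eWAT (59.9% of all genes were), with a median of -0.85. The 12 blood endothelium and 8 adipocyte markers were also all negative, with medians of -0.90 and -0.91. None of the 16 genes passed the adjusted threshold (edgeR). At an unadjusted p of 0.05, 10 of them were lower (9.24% of all genes), and DESeq2 called 6 lower (4.13% of all genes). The ligand gene Vegfd averaged 11.5 ± 5.21 CPM in IR 4A and 23.1 ± 9.03 CPM in WT (-0.999, SE 0.35, edgeR adjusted p = 0.245), and Vegfc had -1.03 (SE 0.37). Ccbe1, a cofactor of VEGF-C processing, averaged 16.3 ± 2.98 CPM in IR 4A and 26.4 ± 2.15 CPM in WT without overlap (-0.70, SE 0.14, edgeR adjusted p = 0.164), and Adamts3, the protease that cleaves VEGF-C, had -1.43 (SE 0.48). Svep1, an extracellular matrix protein of lymphatic vessel growth, had -1.62 (SE 0.49) and Tek, the angiopoietin receptor TIE2, -1.17 (SE 0.41), both without overlap. Ptpn14, a phosphatase, had -0.89 (SE 0.31).

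With library sizes from adipocyte or blood endothelium markers both list medians turned positive, to 0.62 and 0.60 for the further lymphatic genes and to 0.20 and 0.20 for the pathway genes. The median of all genes then stood at 1.04 and 0.96. Itga9, Reln, Ccbe1 and Ptpn14 turned positive as well, while Ackr2, Ccl21a, Maf, Nrp2, Svep1, Adamts3, Tek and Vegfd remained negative.

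**Figure D4:**
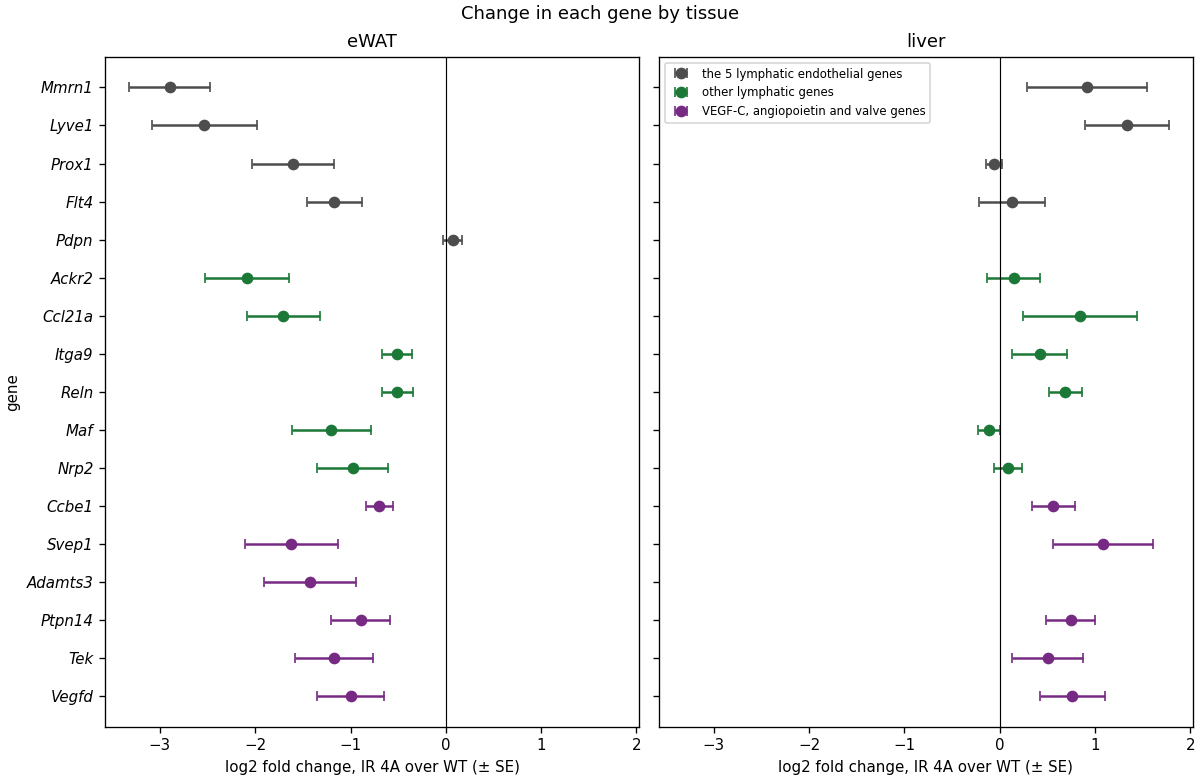
Log2 fold change of IR 4A over WT with its SE in eWAT (left) and liver (right) for the 5 genes and for 6 genes of each of 2 lymphatic lists, those with the smallest unadjusted p in eWAT; genes that did not pass the filter in liver have no point there. All but Pdpn lie left of 0 in eWAT, and in liver most lie at or right of 0.

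In liver the same lists leaned the other way or not at all. Of the further lymphatic genes 10 were tested, 6 were positive (51% of all genes were) and the median was 0.12. Reln averaged 35.5 ± 7.44 CPM in IR 4A and 22.0 ± 5.09 CPM in WT (log2 fold change 0.69, SE 0.18, edgeR adjusted p = 0.128); it passed with DESeq2 (adjusted p = 0.0209) and without IR 4A 1 (0.81, edgeR adjusted p = 0.0439). Itga9 had 0.42 (SE 0.29), Ccl21a 0.84 (SE 0.59), Sox18 0.62 (SE 0.48), Maf -0.12 (SE 0.11) and Nrp2 0.09 (SE 0.15). Of the pathway genes 15 were tested, 13 were positive and the median was 0.56, against 0.00 over all genes. None of either list passed (edgeR; 1 and 6 at an unadjusted p of 0.05, and 1 of each list by DESeq2).

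Groups did not overlap for 3 pathway genes in liver, where 1.68% of all genes were higher without overlap. Efnb2, the gene of ephrin-B2, which valves need, averaged 1.79 ± 0.608 CPM in IR 4A and 0.819 ± 0.241 CPM in WT (1.12, SE 0.29, edgeR adjusted p = 0.128). Angpt1, which encodes the TIE2 ligand angiopoietin 1, had 0.85 (SE 0.25) and Ptpn14 0.75 (SE 0.26). Adamts14, a relative of Adamts3, had 0.97 (SE 0.30), Ccbe1 0.56 (SE 0.23) and Vegfd 0.76 (SE 0.34), each with overlap.

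Set between the tissues in WT, where the 5 members had both directions, most pathway genes were higher in eWAT than in liver. Of the 16 pathway genes 13 were called higher and 1 lower (edgeR's quasi-likelihood test with Benjamini-Hochberg adjustment), where 43.2% of all genes were called higher and 33.9% lower. Of the 13 further lymphatic genes tested 6 were called higher, near the share of all genes, and 3 lower. Svep1 averaged 62.6 ± 30.1 CPM in eWAT and 0.652 ± 0.457 CPM in liver on the common scale (SD, n = 5 each), and its log2 fold change was 6.53 (SE 0.58, edgeR adjusted p = 4.75e-09). Ptpn14 was higher in eWAT by a log2 fold change of 4.67 (SE 0.31), Ccl21a by 4.79 (SE 0.56), Efnb2 by 4.45 (SE 0.24), Fxyd6, the gene of a sodium pump regulator, by 4.40 (SE 0.32), Gata2 by 4.55 (SE 0.49), Angpt1 by 4.21 (SE 0.44) and Piezo1, a stretch-gated ion channel that valves need, by 3.95 (SE 0.16). Hhex, a homeobox factor that hepatocytes also express, averaged 2.82 ± 0.568 CPM in eWAT and 123 ± 46.4 CPM in liver (SD, n = 5 each), and its log2 fold change was -5.44 (SE 0.31, edgeR adjusted p = 8.15e-12). Reln had -1.91 (SE 0.18, edgeR adjusted p = 1.05e-08). In IR 4A, 5 of the further lymphatic genes were called higher in eWAT and 6 lower. Of the pathway genes 9 were called higher and 2 lower there, where 40.5% of all genes were called higher and 34.8% lower. The epididymis and testis RNA in eWAT is part of these totals, and its share in the differences was not tested.

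The change in eWAT minus the change in liver was tested for the genes of the lists. It was not tested for the 5 members, a set chosen for the eWAT contrast of Mmrn1 and Lyve1. It passed for 2 of the 13 further lymphatic genes and 4 of the 16 pathway genes tested. These 6 were all negative, where 1.67% of the 14696 genes tested were called negative. They were Ackr2 (-2.25, SE 0.52, edgeR adjusted p = 0.0342), Adamts14 (-1.82, SE 0.46, edgeR adjusted p = 0.0438), Ptpn14 (-1.66, SE 0.40, edgeR adjusted p = 0.0392), Ccbe1 (-1.28, SE 0.27, edgeR adjusted p = 0.0246), Reln (-1.22, SE 0.25, edgeR adjusted p = 0.0208) and Efnb2 (-1.21, SE 0.31, edgeR adjusted p = 0.0478). Each of the 20 libraries was also left out in turn. Reln kept its call in all 20 of these tests, and Ccbe1 lost it without liver IR 4A 3 or liver IR 4A 4 (edgeR adjusted p = 0.0567 and 0.0541). Ackr2 lost its call in 8 of the 20, Ptpn14 in 13, Efnb2 in 14 and Adamts14 in 15, while the sign stayed negative for all 6 genes. Among the marker lists 4 of 10 fibroblast, 2 of 7 LYVE1-carrying macrophage and 2 of 9 mesothelium markers passed as well, all negative (edgeR). None of the 12 blood endothelium or 6 adipocyte markers did, though all of them were negative (medians -1.08 and -1.07). The median difference was -0.92 for the further lymphatic genes, -1.36 for the pathway genes and -0.12 for all genes. At an unadjusted p of 0.05 (edgeR) were 6 blood endothelium markers, 1 adipocyte marker, 6 further lymphatic genes and 12 pathway genes, all negative.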

How the data were processed

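Poly-A RNA from eWAT and liver of IR 4A and WT mice was sequenced with a stranded kit, 5 libraries per group, per the labels' protocols. The deposited counts are whole numbers per gene, one table per tissue; Salmon 1.8.0, DESeq2 1.32.0 and GRCm39 are named in the submitters' processing notes, without settings. The authors also deposited, for each gene and tissue, the log2 fold change and its error, and an adjusted p-value, which was used for liver. Their table of transformed counts was not used.

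Counts were tested within each tissue with edgeR 4.0.16 (quasi-likelihood F test, TMM scaling, filterByExpr with a minimum count of 10 and a total of 15) and R 4.3.3, with Benjamini-Hochberg adjustment over all genes and a threshold of 0.05. DESeq2 1.42.0, limma 3.58.1 (voom with sample weights), RLE scaling, other filters, a test of all 20 libraries, other library sizes and leaving out each library were alternatives. Tissues were compared over genes of both tables. Correlations used log2 CPM (prior count 2) as deviations from the genotype mean, with all 14400 orders of libraries within genotypes (smallest p 6.9e-05). Levels per kilobase used exon lengths of GENCODE vM21, and promoter windows came from RefSeq (GRCm38.p6). Only the edgeR tests between groups and the permutation test of correlations were tried on simulated data.

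The members and all lists were chosen with earlier results of these data known. Besides the 5 members, the genes named were up to 6 of each lymphatic list with the smallest unadjusted p in a comparison, the 5 most correlated genes with a mean of at least 1 CPM (1 of those for Pdpn is not reported here), and the 3 highest genes of a marker list. Vegfc, Foxc2, Nr2f2, Erdr1, Tnmd, Itgbl1, Lcn8, Spag11b and Crisp1 were named after their values were seen. Library sizes from blood endothelium markers, the epididymis covariate and the measures relative to blood endothelium were chosen after seeing the data. Most same-numbered libraries did not deviate together (r from -0.726 to 0.67), so the replicate number was a block only in an alternative. Chi-square tests of counts found no pair of libraries within sampling noise.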

Additional observations from a re-analysis of the deposited data

Results flagged for a closer look

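Of 42 groups of 5 libraries looked at, 6 held a library far from the other 4 by Dixon's test, and chance gives about 5%. Lyve1 was at 60.0 CPM in eWAT WT 4, where the next WT library had 28.6 CPM, and Flt4 was at 27.0 CPM in the same library, where the next had 15.6 CPM. The mean log2 level of epididymis markers in that library was 1.83, and the next lowest WT library had 10.3. In eWAT IR 4A 3 the mean log2 level of mesothelium markers was 1.94, against 3.27 in the next library. In liver IR 4A 1 the mean log2 level of blood endothelium markers was 2.19, against 2.87 in the next library. Pdpn was at 0.280 CPM in liver WT 1, where the next WT library had 0.0552 CPM.

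The change of IR 4A over WT differed between the tissues by a test of the difference for 6 genes of the lymphatic lists (edgeR's quasi-likelihood test with Benjamini-Hochberg adjustment). The eWAT change minus the liver change was -2.25 for Ackr2, -1.82 for Adamts14, -1.66 for Ptpn14, -1.28 for Ccbe1, -1.22 for Reln and -1.21 for Efnb2 on the log2 scale.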

How the results depend on the processing

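In eWAT, Mmrn1, Lyve1, Prox1 and Flt4 were negative under all 21 alternatives, from -3.10 to -2.10, -2.90 to -1.72, -1.89 to -0.23 and -1.31 to -0.14, and Pdpn ran from 0.00 to 1.18. With library sizes from adipocyte and blood endothelium markers (the first value and the second), positive values replaced negative ones for Itga9 (0.60 and 0.53), Reln (0.70 and 0.60), Ccbe1 (0.38 and 0.34), Ptpn14 (0.092 and 0.081), the median of further lymphatic genes (0.62 and 0.60) and that of pathway genes (0.20 and 0.20), with the median of all genes at 1.04 and 0.96. In liver, library sizes from blood endothelium turned Flt4 to -0.006, Nrp2 to -0.12 and the median of further lymphatic genes to -0.12, with that of all genes at -0.22. Without liver WT 1 and 3, which an earlier look had found high in acute phase genes, the macrophage median turned to 0.33.

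Counts of called genes moved with the tool, and the cause was not tested. In eWAT, the 0 higher and 2 lower genes became 523 and 681 with DESeq2, 76 and 219 with all 20 libraries and 18 and 60 with voom. The lower count was 1 with a filter of 1 CPM and 0 with no filter, with the epididymis covariate, without the testis-high libraries and with either marker-based library size. In liver, the 0 higher and 1 lower genes became 200 and 226 with DESeq2, 40 and 9 with all 20 libraries, 11 and 48 with library sizes from blood endothelium, and 2 and 2 with voom; 0 were lower without WT 1 and 3. For the difference between tissues, 108 higher and 246 lower genes became 603 and 670 with DESeq2. With 1 library left out, the counts of higher and lower genes ran from 0 to 2 and 0 to 4 in eWAT, 0 to 80 and 0 to 63 in liver, and 10 to 297 and 60 to 480 for the difference between tissues; 8 to 18 of the 30 marker relations passed. Left-out libraries moved Flt4 in liver from -0.032 to 0.452, Nrp2 from -0.038 to 0.162 and Prox1 from -0.094 to 0.009.

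Without the testis-high libraries 0 of 10 member pairs passed, against 3, with 36 orders and a smallest p of 0.0278, and r of those 3 was 0.840 to 0.868. There r was 0.992 for Mmrn1 and Prox1, -0.328 for Mmrn1 and Pdpn, 0.918 for Lyve1 and Prox1, -0.685 for Lyve1 and Pdpn, 0.895 for Prox1 and Flt4 and -0.655 for Flt4 and Pdpn. Relative to blood endothelium r was 0.328 for Mmrn1 and Prox1, -0.207 for Lyve1 and Flt4, -0.359 for Lyve1 and Pdpn, 0.44 for Mmrn1 and Lyve1, 0.414 for Mmrn1 and Flt4, 0.813 for Flt4 and Pdpn, 0.822 for Prox1 and Flt4 and 0.815 for Prox1 and Pdpn. The endothelium level was subtracted from both genes of a pair, which by itself can raise r. Left-out libraries moved Lyve1 and Pdpn from -0.103 to 0.60 and Flt4 and Pdpn from -0.163 to 0.707.

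Same-numbered libraries correlated between -0.072 and 0.077 within liver, from -0.726 to 0.67 within eWAT and between -0.107 and 0.043 across tissues. The numbers are thus not shown to pair them. With the replicate block, 2 genes were higher in liver, 0 lower in eWAT and 0 in either direction for the difference between tissues, where the 6 genes of the lymphatic lists had adjusted p from 0.0779 (Ptpn14) to 0.133 (Efnb2); Lyve1 between tissues in IR 4A was -1.56. Depth limits Mmrn1 and Pdpn in liver, where libraries held as few as 1 and 0 counts.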
